A study of Saccharomyces cerevisiae with 222 samples.

Results

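The genes that encode the proteasome were followed through mitotic growth, starvation and meiosis of budding yeast (Saccharomyces cerevisiae, SK1 background). They were chosen by gene symbol: PRE1 to PRE10, PUP1 to PUP3 and SCL1 for the core particle, RPT1 to RPT6 and RPN1 to RPN13 for the regulatory particle, with the transcription factor gene RPN4 among the latter. This gave 33 of the 5818 genes in the tables, of which 32 encode subunits: 7 of the alpha ring, 7 of the beta ring, 6 ATPases and 4 other proteins of the base, and 8 lid proteins. All 33 passed the filter on low counts in every experiment. The study asked how Ume6, which binds the promoters of early meiotic genes, represses them in mitosis and activates them with Ime1 in meiosis. It made 222 RNA-seq libraries in 4 experiments, 74 conditions with 3 replicates each, which the study describes as biological replicates. The total of estimated counts per library lay between 4322697 and 23448759, except for 1 library of the rescue experiment with 44189.

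In the mitotic experiment, haploid cells growing in rich medium carried UME6-AID-3V5 and LexA-ER-B112. The depletion strain also carried 4xLexO-OsTIR, the receptor through which auxin triggers degradation of the tagged Ume6, and the control strain lacked it. Both received β-estradiol (40 µM by the labels) at −30 min and auxin (200 µM) at 0 min, and were sampled at −30, 0, 15, 30, 60 and 120 min. The methods give that β-estradiol dose in nM in place of µM. A ume6Δ strain and WT were sampled at −30 min, and the sources differ on whether these cells had been treated. In the meiotic experiment, diploid cells in sporulation medium carried UME6-AID-3V5, lexA-ER-GAL4AD and copper-inducible IME1 and IME4, with 8xLexO-OsTIR in the depletion strain only. Both received β-estradiol (5 nM) and auxin (200 µM) at 0.5 h and copper sulphate (50 µM) at 2 h. Samples were from 0.5 and 2 h, before copper, and from 2.5, 3 and 4.5 h, with a last one from 6 h. The study's immunoblots limit this strain as a model, since Ume6 was depleted less completely there than in mitosis.

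In the rescue experiment, untagged or sfGFP-tagged IME1 was combined with UME6, UME6-3V5, UME6(T99N)-3V5 or UME6(T99N)-3V5-aGFP, and starved diploid cells were sampled at 0, 2, 4 and 6 h. The study describes the T99N change as preventing the binding of Ime1 to Ume6, and aGFP is a nanobody that binds GFP. So sfGFP-IME1 with UME6(T99N)-3V5-aGFP is the tethered strain, and IME1 with the same UME6 allele is its untethered reference. The strain with untagged IME1 and UME6 is labelled wild type. In the activation domain experiment all strains lacked the endogenous IME1 and carried UME6(T99N)-3V5-aGFP. A transgene driven by the IME1 promoter supplied sfGFP-IME1, IME1, sfGFP-B112 or B112, where B112 is an acidic activation domain of bacterial sequence, and the same 4 times were sampled.

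The proteasome degrades proteins marked with ubiquitin. Its core particle is a stack of alpha and beta rings with the proteolytic sites inside, and the regulatory particle caps it, with a base of ATPases that unfold substrates and a lid that removes ubiquitin. Rpn4 is the transcription factor of these genes: it binds a proteasome-associated control element (PACE) in their promoters and is itself a short-lived substrate of the proteasome, so that its protein level need not follow its transcript. Meiotic divisions and spore formation need proteasomal degradation of cyclins, securin and other regulators.

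The PACE was searched for because it is already described as an element of the promoters of these genes. Its frequency among them is therefore no independent result of these data. The letters GGTGGCAAA were searched on both strands of the 500 bases before each start codon, in RefSeq's S288C R64 sequence and annotation. They occurred for 27 of the 33 genes (81.8%), against 99 of 6006 genes with such a window, the members among them (1.65%). The match was on the gene's strand for 19 and on the other strand for 8, and its first base along the gene lay 84 to 183 bases before the start codon (median 120). The examples below are printed along the gene's strand with 20 bases on either side, and the capitals mark the match. They come from beta-ring genes of the proteolytic sites (PRE2, PRE3), a further beta-ring gene (PRE1), the alpha-ring gene PRE9, the lid scaffold genes RPN6, RPN9 and RPN12 and the ATPase gene RPT6, whose values are given further on.
PRE1 (chrV:177673-177721, + strand): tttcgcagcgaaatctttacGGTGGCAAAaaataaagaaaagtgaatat
PRE2 (chrXVI:732174-732222, + strand): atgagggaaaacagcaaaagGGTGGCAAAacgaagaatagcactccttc
PRE3 (chrX:435025-435073, + strand): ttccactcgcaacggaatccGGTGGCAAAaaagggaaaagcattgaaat
PRE9 (chrVII:761213-761261, + strand): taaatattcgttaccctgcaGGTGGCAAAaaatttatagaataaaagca
RPN6 (chrIV:286780-286828, − strand): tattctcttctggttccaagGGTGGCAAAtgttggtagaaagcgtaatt
RPN9 (chrIV:1322076-1322124, + strand): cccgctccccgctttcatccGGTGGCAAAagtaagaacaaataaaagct
RPT6 (chrVII:411342-411390, − strand): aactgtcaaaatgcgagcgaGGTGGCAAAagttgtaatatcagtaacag
RPN12 (chrVI:252388-252436, + strand, match on the other strand): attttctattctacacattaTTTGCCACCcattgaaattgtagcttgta

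The 6 genes without these letters were PRE5, PUP1, RPN4, RPN8, RPN10 and RPN13. The shorter core GTGGCAA, which every PACE match contains, was found for 31 of 33 genes (93.9%), against 455 of 6006 (7.58%), and was missing from the windows of RPN4 and RPN13. RPN8 and PRE5 had the core without the flanking letters, with the capitals again marking the match.
RPN8 (chrXV:817076-817122, − strand): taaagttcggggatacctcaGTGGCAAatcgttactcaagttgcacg
PRE5 (chrXIII:901543-901589, + strand): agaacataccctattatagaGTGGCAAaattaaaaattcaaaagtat
The core of URS1, GGCGGC, to which Ume6 binds, was present for 5 members (PRE1, PRE3, PRE10, RPN3 and RPN5), 15.2% against 9.57% of all windows. In PRE10 it lay on the other strand, next to the gene's PACE.
PRE10 (chrXV:1018865-1018910, − strand, match on the other strand): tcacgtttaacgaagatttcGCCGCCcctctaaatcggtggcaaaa
The Pdr1 and Pdr3 element TCCGCGGA was in none of the 33 windows and in 39 of all windows (0.649%). These are matches of letters in the S288C genome and not measured sites, and the SK1 genome was not used here. The median changes of the 27 subunit genes with the full PACE letters and the 5 without lay close in some of the comparisons described below and apart in others. On the log2 scale they were 1.72 with and 1.73 without in the tethered strain at 6 h, 1.32 with and 0.98 without for sfGFP-B112 at 2 h, and −0.83 with and −1.45 without over the untagged B112 course. The ranges overlapped where the medians lay apart. For sfGFP-B112 at 2 h they were 0.704 to 1.75 with and 0.353 to 2.02 without. Over the untagged B112 course they were −1.85 to −0.0441 with and −2.14 to −0.0575 without. Of the 5 genes, all but RPN13 held the core. No test set the 27 genes against the 5.

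**Figure D1:**
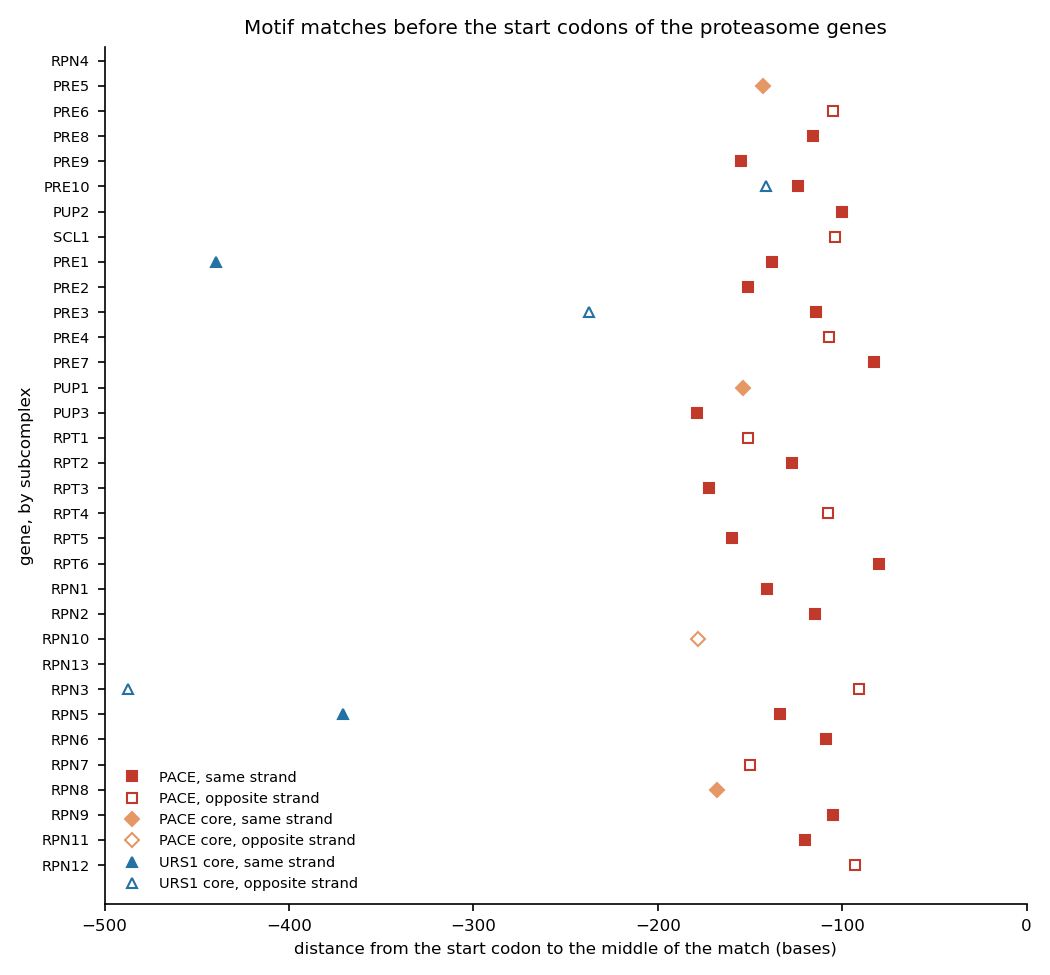
Position of PACE, PACE core and URS1 core matches before each of the 33 genes, with the core drawn only where the full PACE letters are absent. The x axis gives the distance in bases from the start codon to the middle of a match (S288C R64), each row is a gene, colours and shapes are the motifs, and open symbols are matches on the other strand. All PACE matches lie closer than 200 bases to the start codon, and RPN4 and RPN13 have neither form of it.

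Transcript levels are given as TPM, a share of all transcripts scaled for gene length, which the authors estimated with kallisto. Relative to the subunit median of the same library, the median of a subunit gene over an experiment lay between 0.578 and 1.92, and single libraries ran between 0.230 (RPN13, rescue) and 4.30 (RPN9, meiotic). In mitotic cells their medians over conditions ran between 127 TPM for the lid gene RPN3 and 303 TPM for the alpha-ring gene PRE10. The meiotic range was 215 TPM (PUP2, alpha ring) to 640.3 TPM (RPN5, lid). Relative to the subunit median, RPN12 was among the 3 lowest subunits in each experiment, and the highest was PRE10 in the mitotic, RPN5 in the meiotic and activation domain and RPT1 in the rescue experiment. All 33 genes together held 0.569% of all TPM in WT mitotic cells and up to 3.06% in tethered cells after 6 h of starvation. Differences between conditions were tested with edgeR's quasi-likelihood test on the estimated counts. Changes are log2 fold changes ± SE from that fit, and p-values are Benjamini-Hochberg adjusted over all genes tested in that comparison, with 0.05 as threshold. In bulk libraries, fewer cells with a transcript and fewer transcripts per cell cannot be told apart. UME6 was measured at 0.0510, 0.109 and 0.557 TPM in ume6Δ, against 36.5, 34.9 and 35.0 TPM in WT, which checks those labels. Depletion acts on the protein, and no such loss of the UME6 transcript can check its labels. Levels of early meiotic genes in depleted cells are given further on.

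**Figure D2:**
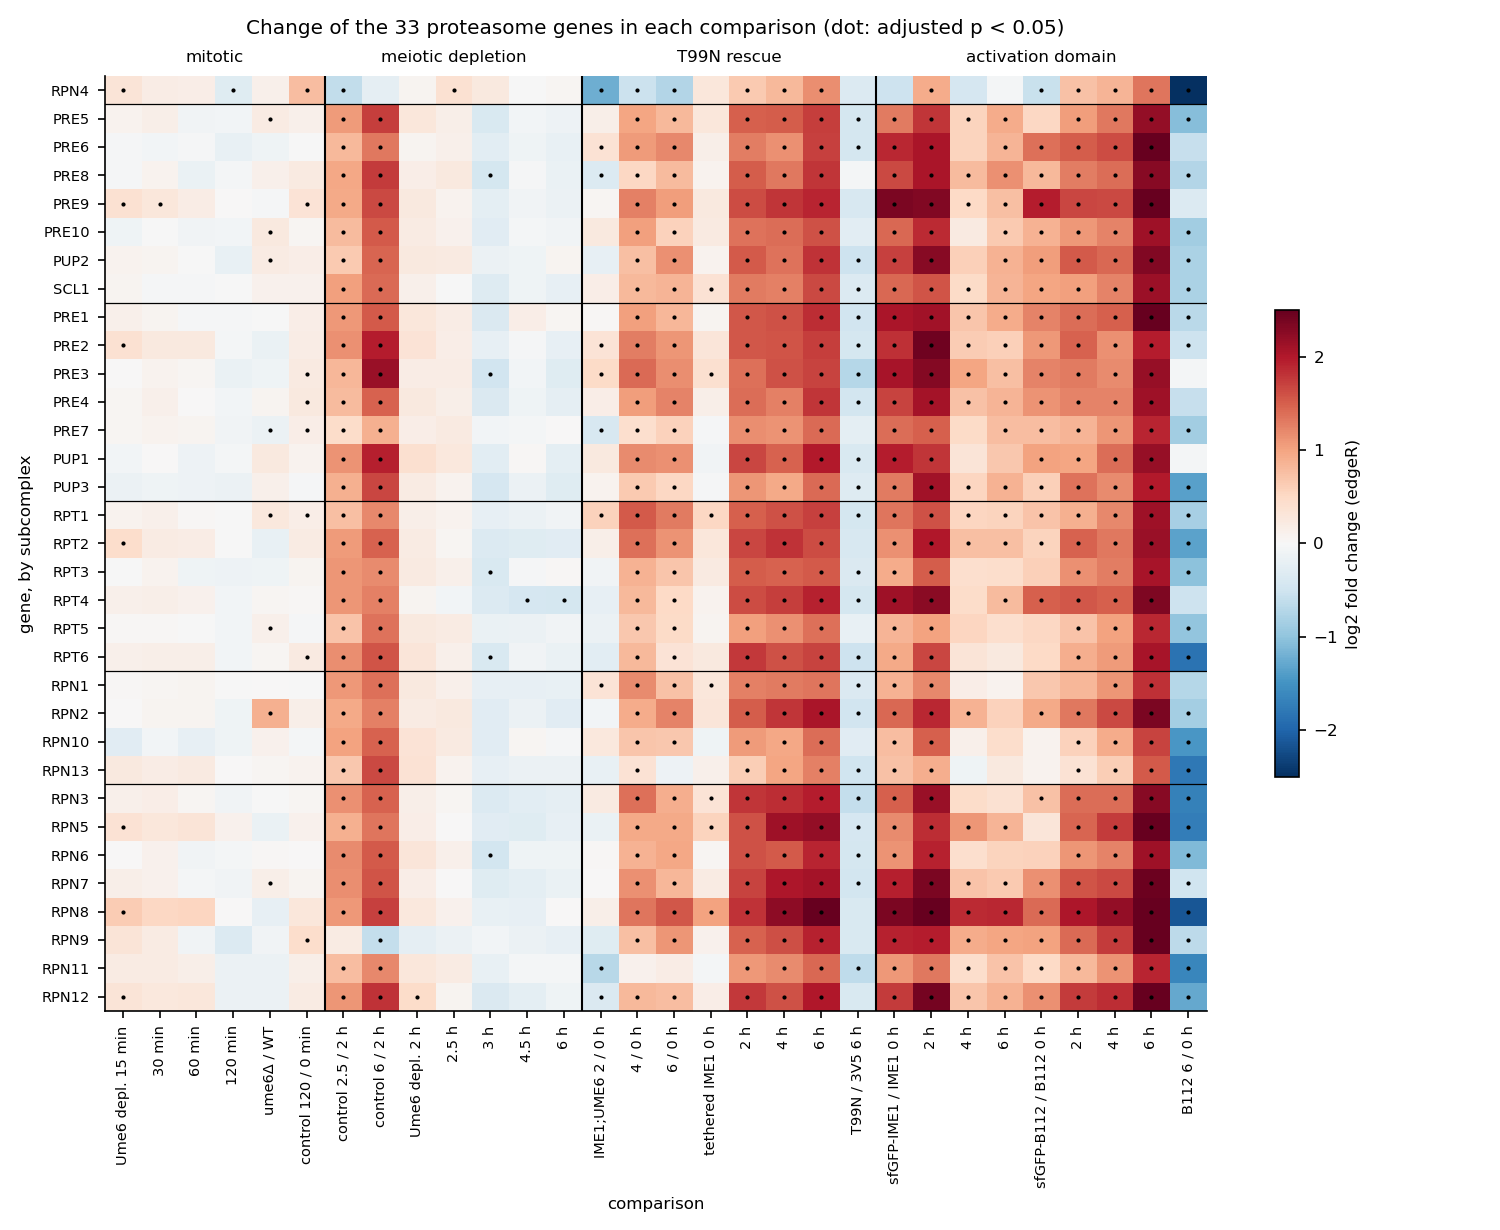
Log2 fold changes of the 33 genes (rows, by subcomplex, RPN4 at the top) in the main comparisons (columns). Red is higher and blue lower in the first-named condition, values beyond the ends of the scale take the end colour, and dots mark an adjusted p below 0.05. The mitotic depletion columns are pale, the tethering and sfGFP-B112 columns are red for almost all rows, and RPN4 is blue where the subunits are red in the meiotic time courses.

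In mitotic cells, Ume6 depletion moved few proteasome genes past the test. Before auxin, at 0 min, no member was called (edgeR), and the background of all genes called was 0.510%. An unadjusted p below 0.05 was found for 5 members, beside 477 of the 5488 genes tested. After 15 min of auxin 7 of 33 were higher and none lower, against 10.2% of all genes higher. Those 7 were the lid genes RPN8, RPN5 and RPN12, the ATPase gene RPT2, PRE2, PRE9 and RPN4. The median change was 0.09 over the members and 0.00 over all genes tested. The count was 1 without the replicate 1 libraries and 2 without the replicate 2 libraries. It was between 3 and 4 when single libraries of this time were left out (depletion replicates 1 and 3, control replicates 2 and 3), and it was 16 when libraries were scaled by total counts only.

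RPN8, the partner of the deubiquitinase Rpn11 in the lid, moved most at 15 min. It measured 214, 209 and 196 TPM in depleted cells, against 137, 125 and 124 TPM in control cells, with no overlap (0.63 ± 0.20, adjusted p = 0.029). Before auxin, at 0 min, it already measured 137, 176 and 155 TPM in the depletion strain, against 123, 117 and 114 TPM in the control strain, without overlap and not called (0.39 ± 0.20, adjusted p = 0.53). The other 5 subunit genes called at 15 min also stood above 0 at 0 min, at 0.17 to 0.23 with none called, and the difference between 15 and 0 min was not tested. RPT2, an ATPase that gates the core particle, rose by 0.44 ± 0.096 (adjusted p = 0.0020), and PRE2, the chymotrypsin-like beta subunit, by 0.38 (adjusted p = 0.049). The smallest of the called subunit changes were 0.32 for RPN12 (adjusted p = 0.032) and 0.36 for RPN5 (adjusted p = 0.022).

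RPN4 itself, which is on the study's list of Ume6 targets, first rose and later fell relative to the control. That list was chosen on these samples and is not independent evidence. At 15 min RPN4 measured 130, 144 and 144 TPM in depleted cells, against 108, 106 and 107 TPM in control cells, without overlap (0.33 ± 0.074, adjusted p = 0.0023). At 30 min (0.19, adjusted p = 0.11) and 60 min (0.17, adjusted p = 0.15) it was not called. At 120 min it measured 152, 169 and 154 TPM in depleted cells, against 205, 227 and 180.1 TPM in control cells, again without overlap and now lower (−0.31 ± 0.073, adjusted p = 0.0054). The change between 15 and 120 min was itself tested, and differed by −0.64 ± 0.10 (adjusted p = 0.0010). RPN4 was then the only member called, in a test that called 0.437% of all genes, and it was not called without the replicate 1 or the replicate 2 libraries.

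At the other times few members were called in either direction. At 30 min PRE9 alone was called (0.28 ± 0.089, adjusted p = 0.049), against 7.98% of all genes. That call was lost with RLE size factors, and without the replicate 1 or replicate 2 libraries, and 4 members were called without the replicate 3 libraries. At 60 min none was called by edgeR and 1 by DESeq2, against 5.96% of all genes called by edgeR. At an unadjusted p below 0.05 there were 8 members, beside 1332 of the 5488 genes tested. Without the replicate 3 libraries the count at 60 min was 2, and it was 3 when only the depletion library of replicate 3 was left out. At 120 min RPN4 was the only call, against 5.59% of all genes, and it was lost without the replicate 1 or the replicate 2 libraries and with total counts only. Heat shock markers and early meiotic genes moved beside these results. At 15 min the summed level of 5 early meiotic genes was 209 to 223 TPM in depleted cells and 36.6 to 40.5 TPM in control cells, with 5 of 5 higher. That of 5 heat shock genes was 1784 to 1933 TPM in depleted cells and 1025 to 1176 TPM in control cells, with 3 of 5 higher, and the part of either in the changes of RPN8 and RPN4 was not tested.

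The control strain changed over the same hours without any loss of Ume6, and RPN4 was the member that changed most. At 120 min it measured 205, 227 and 180.1 TPM, against 96.8, 110 and 108 TPM at 0 min (0.78 ± 0.074, adjusted p = 3.7e-10). The ranges lay far apart. Another 7 members were higher, among them the lid gene RPN9 (0.43), PRE9 (0.33), RPT6 (0.23), PRE7 (0.17) and RPT1 (0.17), so 8 of 33 in all against 18.8% of all genes. The count was 25 with total counts only, which moved the median of all genes from 0.00 to 0.20, and it was 4 without the replicate 1 or the replicate 2 libraries. Between −30 and 0 min, 4 members rose, RPN9 the most (176, 181 and 181 TPM at 0 min, against 108, 167 and 111 TPM at −30 min, 0.59, adjusted p = 5.2e-04), followed by PRE6 (0.26), PUP3 (0.26) and PRE5 (0.17). RPN4 fell (−0.23, adjusted p = 0.021). Of all genes 13.6% were higher and 13.9% lower in that comparison, and the counts of members without the libraries of 1 replicate number ran between 1 and 2 higher and between 0 and 1 lower.

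In ume6Δ, which lacks Ume6 throughout growth, the base scaffold gene RPN2 had the largest change of the members. It measured 314, 326 and 377 TPM in ume6Δ, against 173, 178 and 165 TPM in WT, with no overlap (0.88 ± 0.058, 1.84-fold, adjusted p = 6.9e-15). After 120 min of depletion it measured 173, 195 and 186 TPM, close to WT, although no test set these groups against each other. In all 7 members were higher in ume6Δ (RPN2, RPT1 at 0.26, PRE10 at 0.25, PRE5 at 0.21, PUP2 at 0.20, RPN7 at 0.15 and RPT5 at 0.14) and PRE7 was lower (−0.14, adjusted p = 0.029). Of all genes 27.5% were higher and 27.8% lower. RPN4 measured 95.7, 96.5 and 106 TPM in ume6Δ, against 88.8, 94.3 and 74.3 TPM in WT, and was not called (0.12, adjusted p = 0.18). With RLE size factors 8 were higher and none lower, and with total counts only 5 and none. Leaving out the replicate 1, 2 or 3 libraries gave 1, 3 or 11 members higher and 0, 0 or 4 lower. The 5 heat shock genes summed to 1079 to 1176 TPM in ume6Δ and 291 to 343 TPM in WT, and their part in these values was not tested.

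**Figure D3:**
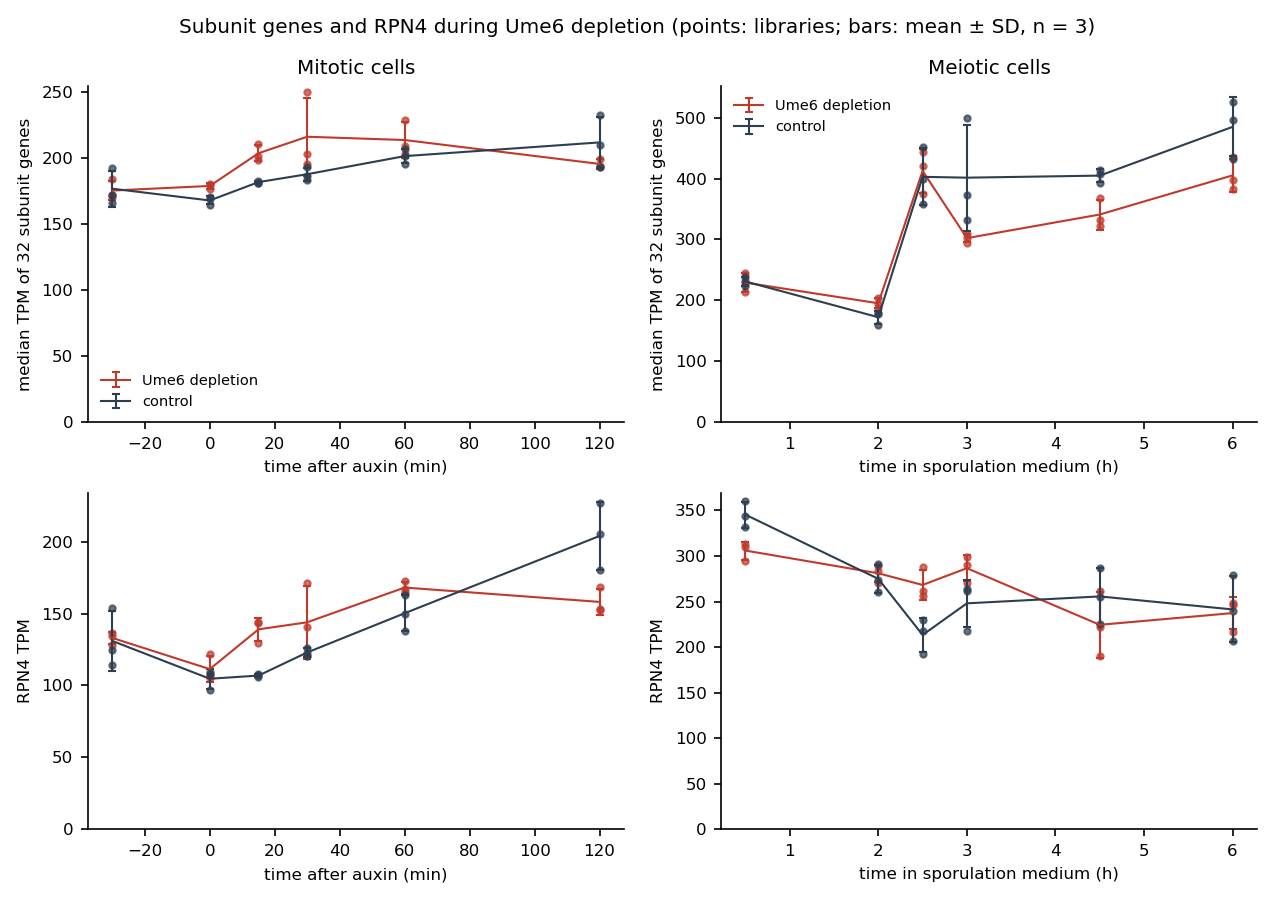
Median level of the 32 subunit genes (top) and level of RPN4 (bottom) in the mitotic and meiotic depletion experiments. The y axis gives TPM and the x axis the time, points are libraries, and lines and bars are means ± SD (n = 3), red for Ume6 depletion and dark for the control. RPN4 in mitotic control cells reaches 180.1 to 227 TPM at 120 min, above the depleted cells, and the meiotic subunits step up between 2 and 2.5 h in both strains.

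Nearly all proteasome genes rose when meiosis was induced. In control cells of the meiotic experiment, 31 of the 33 members were higher at 2.5 h, 30 min after copper was added, than at 2 h, against 26.5% of all genes. The median change of the 32 subunit genes was 0.99, and that of all genes −0.08. Their median level was 451, 399.8 and 358 TPM at 2.5 h, against 179.7, 177 and 159.8 TPM at 2 h. RPN6, a lid scaffold, rose the most and measured 359.8, 337 and 322 TPM at 2.5 h, against 130, 128 and 119.9 TPM at 2 h (1.17 ± 0.12, 2.26-fold, adjusted p = 5e-10). RPT6 (1.17) and RPN7 (1.16) followed, and the smallest called rises were those of PRE7 (0.46, adjusted p = 1.9e-04), PUP2 (0.66) and the ubiquitin receptor gene RPN13 (0.67). All 5 subcomplexes rose, with medians between 0.88 for the beta ring and 1.10 for the lid, and the 7 alpha-ring, 7 beta-ring, 6 ATPase and 4 other base genes were called without exception.

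The remaining members were RPN9 and RPN4. RPN9 stood high before induction, with 964, 908 and 864 TPM at 2.5 h and 585, 713 and 687 TPM at 2 h (0.20, not called), whereas it had 144, 158 and 162 TPM at 0.5 h. RPN4 fell, with 229.8, 218 and 192 TPM at 2.5 h, against 291, 260 and 274 TPM at 2 h, the groups not overlapping (−0.62 ± 0.10, adjusted p = 3.4e-06). The activator gene and its target genes thus moved in opposite directions over these 30 min at the level of transcripts. Copper, the induction of IME1 and IME4 and the passage of time came together in this comparison and cannot be told apart. CUP1-2, a metallothionein gene, measured 59978 to 67533 TPM at 2.5 h and 651 to 2507 TPM at 2 h, the 5 early meiotic genes summed to 1834 to 2654 TPM at 2.5 h and 273 to 313 TPM at 2 h, and 4 of 5 heat shock genes were lower.

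At 6 h, 31 members were higher than at 2 h, against 34.2% of all genes, and the beta-ring genes of the proteolytic sites led. PRE3, the caspase-like subunit, measured 812, 685 and 755 TPM at 6 h, against 154, 178 and 159.5 TPM at 2 h (2.16 ± 0.13, 4.48-fold, adjusted p = 6.5e-15). PRE2 (1.96) and the trypsin-like subunit PUP1 (1.95) came next, and PRE7 (0.88), RPT3 (1.18) and RPT1 (1.2) rose least. RPN9 was the 1 subunit that fell, with 475, 428 and 444 TPM at 6 h (−0.59 ± 0.13, adjusted p = 1.9e-04). RPN4 had 279, 206 and 239 TPM at 6 h, overlapping its range at 2 h (−0.22, adjusted p = 0.052). It was called lower with a replicate block (adjusted p = 0.0401), and also with strain and replicate number together as the block (adjusted p = 0.0285).

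Meiotic depletion of Ume6 moved few proteasome genes past the test at any time, although most lay to one side of 0 at each time. Of the 33, 32 were above 0 at 2 h and 30 at 2.5 h, against 1 at 3 h, 3 at 4.5 h and 6 at 6 h. At 2 h, before induction, the median change was 0.22, against 0.02 for all genes. An unadjusted p below 0.05 was found for 15 members, beside 890 of the 5526 genes tested. RPN12 alone was called higher (131, 123 and 134 TPM in depleted cells, against 101, 98.6 and 91.1 TPM in control cells, 0.45 ± 0.13, adjusted p = 0.029), against 4.74% of all genes. That call was lost without the replicate 2 or the replicate 3 libraries and with total counts only, and 3 members were called by DESeq2. At 2.5 h RPN4 alone was higher (261, 288 and 256 TPM in depleted cells, against 229.8, 218 and 192 TPM in control cells, 0.38 ± 0.10, adjusted p = 0.016), against 8.27% of all genes. The groups did not overlap, and the call was likewise lost without the replicate 2 or the replicate 3 libraries. The difference between the effects at 2.5 and 2 h was not called for any member, in a test that called 3.29% of all genes. At an unadjusted p below 0.05 there were 2 members, beside 814 of the 5526 genes tested. For RPN4 the difference was 0.31 (edgeR adjusted p = 0.28).

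At 3 h, 5 members were lower in depleted cells, against 4.63% of all genes lower. They were PRE3 (−0.49, adjusted p = 0.014), RPN6 (−0.46, adjusted p = 0.011), PRE8 (−0.44, adjusted p = 0.027), RPT3 (−0.39, adjusted p = 0.023) and RPT6 (−0.38, adjusted p = 0.036). PRE3 measured 271, 304 and 265 TPM in depleted cells, against 499.7, 370.1 and 346 TPM in control cells, and RPN6 242, 238 and 216 TPM in depleted cells, against 418, 306 and 269 TPM in control cells. Neither pair of groups overlapped, though control replicate 1 was well above the other control libraries for both genes. In all 21 members had an unadjusted p below 0.05, beside 1271 of the 5526 genes tested. Only RPN4 among the members was above 0, and the median change was −0.28 over the members, against 0.02 for all genes. No member was called without the replicate 1 or the replicate 2 libraries, while 9 were called by DESeq2, 9 with a replicate block and 12 with total counts only. RPT4 alone was lower at 4.5 h (261, 212 and 204 TPM in depleted cells, against 348, 318 and 359 TPM in control cells, −0.43, adjusted p = 0.049) and at 6 h (296, 241 and 272 TPM in depleted cells, against 438, 315 and 399.7 TPM in control cells, −0.44, adjusted p = 0.031). These counts stand beside 8.76% and 13.6% of all genes, and both calls were lost without the libraries of any 1 replicate number. The summed level of the early meiotic genes at 2.5 h was 707 to 815 TPM in depleted cells and 1834 to 2654 TPM in control cells, and 4 of 5 heat shock genes were higher in depleted cells (summed 1452 to 1951 TPM, against 836 to 1160 TPM in control cells). At 3 h the heat shock genes summed to 863 to 974 TPM in depleted cells and 478 to 631 TPM in control cells, with 3 of 5 higher, and the early meiotic genes to 573 to 757 TPM in depleted cells and 605 to 1167 TPM in control cells, with 1 of 5 lower. At 4.5 and 6 h 5 of 5 early meiotic genes were lower. The part of these genes in the change of RPN4 and in those of the subunits was not tested.

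Wild-type cells of the rescue experiment were starved without added copper. After 2 h of starvation 5 members were higher and 5 lower than at 0 h, against 33.0% and 33.8% of all genes. RPT1 (0.58, adjusted p = 6.3e-05), PRE3 (0.48), PRE6 (0.37), PRE2 (0.34) and RPN1 (0.34) rose, while RPN4 (−1.23 ± 0.19, adjusted p = 5.4e-08), RPN11 (−0.69, adjusted p = 5.3e-07), PRE7 (−0.40), RPN12 (−0.36) and PRE8 (−0.34) fell. RPN4 measured 212, 186 and 200.4 TPM at 2 h, against 458, 498 and 403 TPM at 0 h. These counts moved with the settings. With RLE size factors 8 members were higher and 4 lower, with total counts only 5 and 3, and without the replicate 3 libraries none was higher. Without the replicate 1 libraries 3 were higher and 3 lower, and without the replicate 2 libraries 3 were lower.

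At 4 h the rise was general. Of the 33 members 31 were higher than at 0 h, against 36.5% of all genes, and the median change of the members was 0.92, against −0.02 for all genes. The subunit median was 531, 556 and 562 TPM at 4 h, against 248, 263 and 256 TPM at 0 h. RPT1 (1.52 ± 0.13, 2.88-fold, adjusted p = 5.6e-17), PRE3 (1.42) and RPT2 (1.37) rose most, and RPN13 (0.36), PRE7 (0.42) and PRE8 (0.51) least. RPN4 was lower (330, 345 and 380.4 TPM at 4 h, −0.54, adjusted p = 0.0082), a call that is absent with total counts only. RPN11, the deubiquitinase of the lid, was the subunit not called. It had measured 248, 185 and 228 TPM at 2 h, against 345, 346 and 338 TPM at 0 h. At 6 h, 30 members were higher in the fit, against 39.6% of all genes, with RPN8 (1.54, 2.92-fold), RPT1 (1.31) and PRE4 (1.25) at the top, RPT6 (0.35), RPT5 (0.48) and RPT4 (0.50) lowest among those called and RPN4 lower (−0.72, adjusted p = 3.8e-04). By then TPM had moved for all genes: the median log2 ratio of TPM at 6 h over 0 h was 0.39 for the members and −0.47 for all genes tested. The subunit median was 290, 379.6 and 349 TPM at 6 h, below that at 4 h. Middle meiotic genes summed to 4413 to 5227 TPM at 6 h and 37.4 to 44.5 TPM at 0 h, and with total counts only 25 members were higher and 2 lower.

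**Figure D4:**
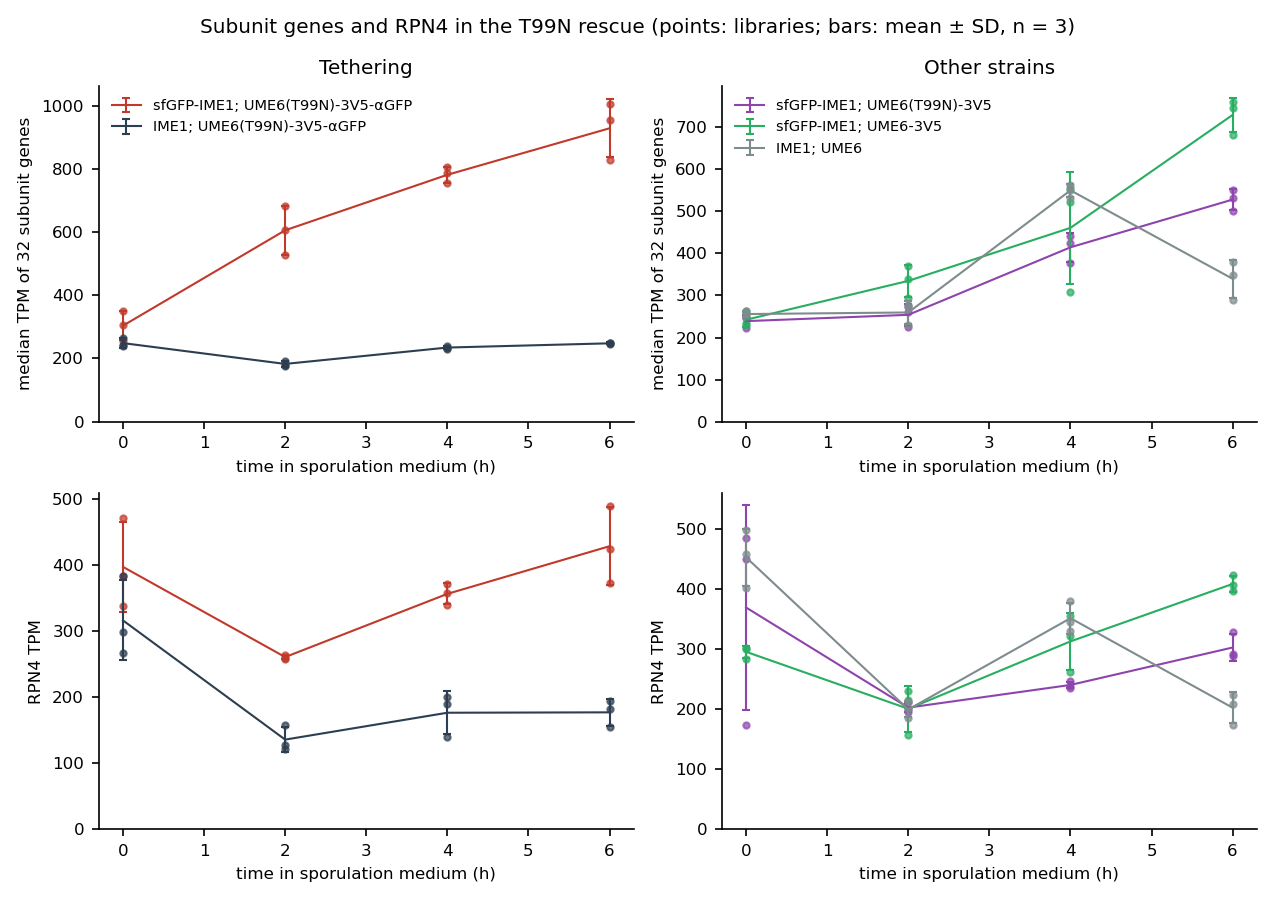
Median level of the 32 subunit genes (top) and level of RPN4 (bottom) in 5 strains of the rescue experiment at 0, 2, 4 and 6 h. The y axis gives TPM, points are libraries, and lines and bars are means ± SD (n = 3). The 4 h library of sfGFP-IME1 with UME6-3V5 that is lowest in the subunit median is the one with 44189 counts. The tethered strain, with sfGFP-IME1 and UME6(T99N)-3V5-aGFP, rises to a subunit median of 827 to 1004 TPM at 6 h, its untethered reference stays between 176 and 266 TPM at all times, and wild type is highest at 4 h.

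From 2 h on, all proteasome genes were higher when Ime1 was tethered to Ume6-T99N. The question was whether Ime1 acts through Ume6, and the untethered reference has both proteins with the T99N change. In the study some cells of that reference still formed spores, fewer than with UME6(T99N)-3V5 and no nanobody. The reference thus differs from a plain T99N strain as well. At 0 h 7 of 33 members were higher in the tethered strain, a share near the 19.1% of all genes: RPN8, RPN5, RPT1, PRE3, SCL1, RPN3 and RPN1. RPN8 measured 269.7, 492 and 326 TPM in tethered cells, against 174, 178 and 176 TPM in untethered cells (1.0 ± 0.16, adjusted p = 5.9e-07), and replicate 2 of the tethered strain was the highest. The count at 0 h was 11 without the replicate 1 libraries, 2 without the replicate 2 libraries, 3 without the replicate 3 libraries and 3 with total counts only.

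At 2, 4 and 6 h all 33 members were higher in tethered than in untethered cells, with 29.0%, 31.7% and 33.0% of all genes called higher. The median change of the members was 1.51 at 2 h, 1.52 at 4 h and, by 6 h, 1.72, while that of all genes lay between −0.06 and −0.04. Tethered cells had a subunit median of 606.8, 682 and 528 TPM at 2 h, 754, 804 and 786 TPM at 4 h and 953, 827 and 1004 TPM at 6 h. Untethered cells had 192, 180 and 176 TPM at 2 h, 234, 229 and 241 TPM at 4 h and 249, 244 and 250.1 TPM at 6 h. No library of one strain came near the other, and the members together held 3.06% of all TPM in tethered cells at 6 h, against 0.846% in untethered cells.

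RPN8 led at each of these times. At 6 h it measured 1027, 1128 and 1227 TPM in tethered cells, against 184, 158 and 203 TPM in untethered cells (2.53 ± 0.17, 5.78-fold, adjusted p = 9.5e-22). RPN5 (2.19) and RPN7 (2.08), both lid scaffolds, came next. The smallest changes at 6 h were those of RPN4 (1.17), RPN13 (1.27) and RPN1 (1.34). RPN13 measured 493, 449.6 and 645 TPM in tethered cells, against 203, 196 and 213 TPM in untethered cells. At 2 h RPN3 (1.78) and RPT6 (1.77) followed RPN8 (1.81), with RPN13 (0.61), RPN4 (0.66) and RPT5 (1.03) lowest, and at 4 h RPN5 (2.12) and RPN7 (2.03) followed RPN8 (2.23), with RPN4 (0.80), PUP3 (0.94) and RPN10 (0.96) lowest. By subcomplex, the 6 h medians were 1.98 for the lid, 1.73 for the alpha ring, 1.72 for the beta ring, 1.66 for the ATPases and 1.36 for the other base genes.

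RPN4 was higher in tethered than in untethered cells as well. At 6 h it measured 489.7, 372 and 424 TPM in tethered cells, against 181, 155 and 194 TPM in untethered cells (1.17 ± 0.19, 2.25-fold, adjusted p = 1.4e-07). At 2 h the change was 0.66 (adjusted p = 0.0020), at 4 h 0.80 (adjusted p = 1.5e-04), and at 0 h 0.29 (adjusted p = 0.23), when 383, 337 and 471 TPM in tethered cells overlapped 298, 384 and 267 TPM in untethered cells. Within tethered cells RPN4 was high at 0 h, low at 2 h (264, 259.6 and 258 TPM) and high again at 6 h, a dip that the subunits did not share. Early meiotic genes summed to 3619 to 4047 TPM in tethered cells at 6 h and 60.4 to 90.7 TPM in untethered cells. The heat shock genes, of which 4 of 5 were higher, summed to 3597 to 4528 TPM in tethered cells and 1268 to 1731 TPM in untethered cells. The part of the heat shock genes' state in the proteasome values was not tested.

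With the T99N change and no nanobody, proteasome genes were lower. In cells with sfGFP-IME1 at 6 h, 22 members were lower with UME6(T99N)-3V5 than with UME6-3V5, against 6.51% of all genes lower, and none was higher. The subunit median was 552, 501 and 531 TPM with UME6(T99N)-3V5, against 683, 760.3 and 745 TPM with UME6-3V5. PRE3 (−0.70, adjusted p = 2.9e-04), RPN11 (−0.63, adjusted p = 6.2e-05) and RPN3 (−0.59, adjusted p = 0.0025) fell most, and PUP3 (−0.32, adjusted p = 0.048), SCL1 (−0.35) and RPN1 (−0.36) least among those called. RPN11 measured 366, 341 and 327 TPM with UME6(T99N)-3V5, against 555, 568 and 578 TPM with UME6-3V5. RPN4 was not called (−0.34, adjusted p = 0.24). The count was 17 without the replicate 1 libraries, 5 without the replicate 2 libraries and 2 without the replicate 3 libraries. Early meiotic genes were at 901 to 974 TPM in sum with UME6(T99N)-3V5 and 2446 to 2770 TPM with UME6-3V5, and their part in the result was not tested.

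In the activation domain experiment, proteasome genes were higher with tethered sfGFP-IME1 at 0 and 2 h, and the median ratio of their TPM was near 0 on the log2 scale at 4 and 6 h. At 0 h 32 members were higher with sfGFP-IME1 than with IME1, against 27.7% of all genes, and at 2 h all 33 were, against 32.6%. The subunit median was 820.1, 867 and 649.8 TPM with sfGFP-IME1 at 0 h, against 332, 171 and 295 TPM with IME1, and 547, 613 and 640.2 TPM with sfGFP-IME1 at 2 h, against 193, 167 and 147 TPM with IME1. Replicate 2 of IME1 at 0 h was below the other 2 libraries of its group. PRE9, an alpha-ring subunit, moved most at 0 h, with 1449, 1492 and 1079 TPM with sfGFP-IME1, against 256, 224 and 261 TPM with IME1 (2.36 ± 0.22, 5.13-fold, adjusted p = 1.1e-11). RPN8 (2.35) and RPT4 (2.11) followed, and RPN13 (0.74), RPN10 (0.76) and RPT5 (0.86) changed least among those called. At 2 h RPN8 measured 882, 1104 and 1050 TPM with sfGFP-IME1, against 163, 169 and 122 TPM with IME1 (2.72, 6.59-fold, adjusted p = 6.4e-12), ahead of PRE2 (2.42) and RPN12 (2.40). RPN13 (0.90), RPN4 (0.92, adjusted p = 0.0012) and RPT5 (1.01) changed least.

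RPN4 was high in all 4 strains at 0 h. It measured 752, 740.1 and 512 TPM with sfGFP-IME1, against 775, 559 and 1323 TPM with IME1 (−0.51, adjusted p = 0.060), groups that overlap in part. This was the member not called at 0 h. Early meiotic genes summed to 6273 to 9077 TPM with sfGFP-IME1 at 0 h and 74.4 to 304 TPM with IME1.

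At 4 and 6 h the fitted changes and the TPM differed. The fit had 18 members higher at 4 h, against 31.0% of all genes, and 22 at 6 h, against 30.1%. RPN8 led at both times, with 1.86 (3.63-fold, adjusted p = 9.9e-09) at 4 h and 1.88 (3.68-fold) at 6 h. At 4 h RPN5 (1.11) and PRE3 (0.99) followed and RPN11 (0.44), SCL1 (0.49) and PRE9 (0.50) were lowest among those called. At 6 h PRE8 (1.15) and RPN9 (0.99) followed and RPT1 (0.55), PRE2 (0.60) and PRE10 (0.65) were lowest among those called. The median log2 ratio of TPM was, however, only 0.03 for the members at 4 h and −0.02 at 6 h, while that of all genes tested was −0.65 and −0.77. The fit thus measures these changes relative to the other genes, and in TPM they were smaller. Of the 18 members called at 4 h, 15 had a higher mean TPM with sfGFP-IME1 and 4 did not overlap. Of the 22 called at 6 h, 15 had a higher mean and 3 did not overlap. The same counts were not made over all genes, so they cannot be called particular to the members. PRE9 was called at 6 h and overlapped, with 321, 315 and 371 TPM with sfGFP-IME1 at 6 h, against 405, 322 and 291 TPM with IME1. RPN8 did not overlap, with 403, 426 and 460.4 TPM with sfGFP-IME1 at 6 h, against 235, 184 and 173 TPM with IME1. With total counts only the counts were 9 higher and 1 lower at 4 h and 17 higher at 6 h, and without the replicate 3 libraries they were 6 at 4 h and 5 at 6 h. RPN4 was not called at 4 h (−0.41, adjusted p = 0.13) or 6 h (−0.04, adjusted p = 0.89). The middle meiotic genes summed to 5358 to 5480 TPM with sfGFP-IME1 at 4 h and 35.9 to 45.8 TPM with IME1.

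With the activation domain B112 most members were higher at 0 h and nearly all from 2 h on. At 0 h 23 of 33 members were higher with sfGFP-B112 than with B112, against 28.3% of all genes, and RPN4 was lower. At 2 h 32 members were higher, against 24.0% of all genes, and at 4 h and 6 h all 33, against 21.0% and 28.5%. The median change of the members grew over the course, with 0.81 at 0 h, 1.27 at 2 h, 1.28 at 4 h, and by 6 h 2.16. At 6 h the subunit median was 788, 929 and 911 TPM with sfGFP-B112, against 202, 186 and 172 TPM with B112. The count was 9 at 0 h without the replicate 1 libraries and 15 at 2 h without the replicate 3 libraries, and B112 replicate 1 was the lowest library of its group at 0 h (158, 293 and 275 TPM in subunit median).

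RPN8 at 6 h showed the largest change of any member in any of these comparisons. It measured 1260, 1264 and 1403 TPM with sfGFP-B112, against 134, 126 and 108 TPM with B112 (3.33 ± 0.25, 10.1-fold, adjusted p = 1e-13). PRE9 was next, with 1360, 1532 and 1516 TPM with sfGFP-B112, against 244, 212 and 195 TPM with B112 (2.68, 6.39-fold), and then RPN12 (2.62). RPN4 (1.33), RPN13 (1.53) and RPN10 (1.69) changed least. At 0 h PRE9 (1.96), RPT4 (1.50) and RPN8 (1.42) led and RPN11 (0.50), RPT2 (0.56) and PUP3 (0.60) were lowest among those called, at 2 h RPN8 (2.02), RPN12 (1.75) and PRE9 (1.68) led and RPN13 (0.35, adjusted p = 0.032), RPN10 (0.58) and RPT5 (0.70) were lowest, and at 4 h RPN8 (2.20), RPN12 (1.85) and RPN5 (1.75) led and RPN13 (0.62), RPN4 (0.85) and RPN10 (0.94) were lowest.

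RPN4 crossed over during the B112 course. At 0 h it measured 759.6, 757 and 738 TPM with sfGFP-B112, against 1080, 691 and 809 TPM with B112 (−0.56, adjusted p = 0.043), groups that overlap, and the call is absent with total counts only. At 2 h it was higher with sfGFP-B112 (0.74, adjusted p = 0.011) and at 4 h also (0.85, adjusted p = 0.0043). At 6 h it measured 444, 589.9 and 676 TPM with sfGFP-B112, against 252, 209.7 and 179.5 TPM with B112 (1.33 ± 0.24, adjusted p = 1.6e-05), with no overlap. The heat shock genes summed to 3777 to 4361 TPM with sfGFP-B112 at 6 h and 1743 to 2006 TPM with B112, and their part in the RPN4 values was not tested.

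**Figure D5:**
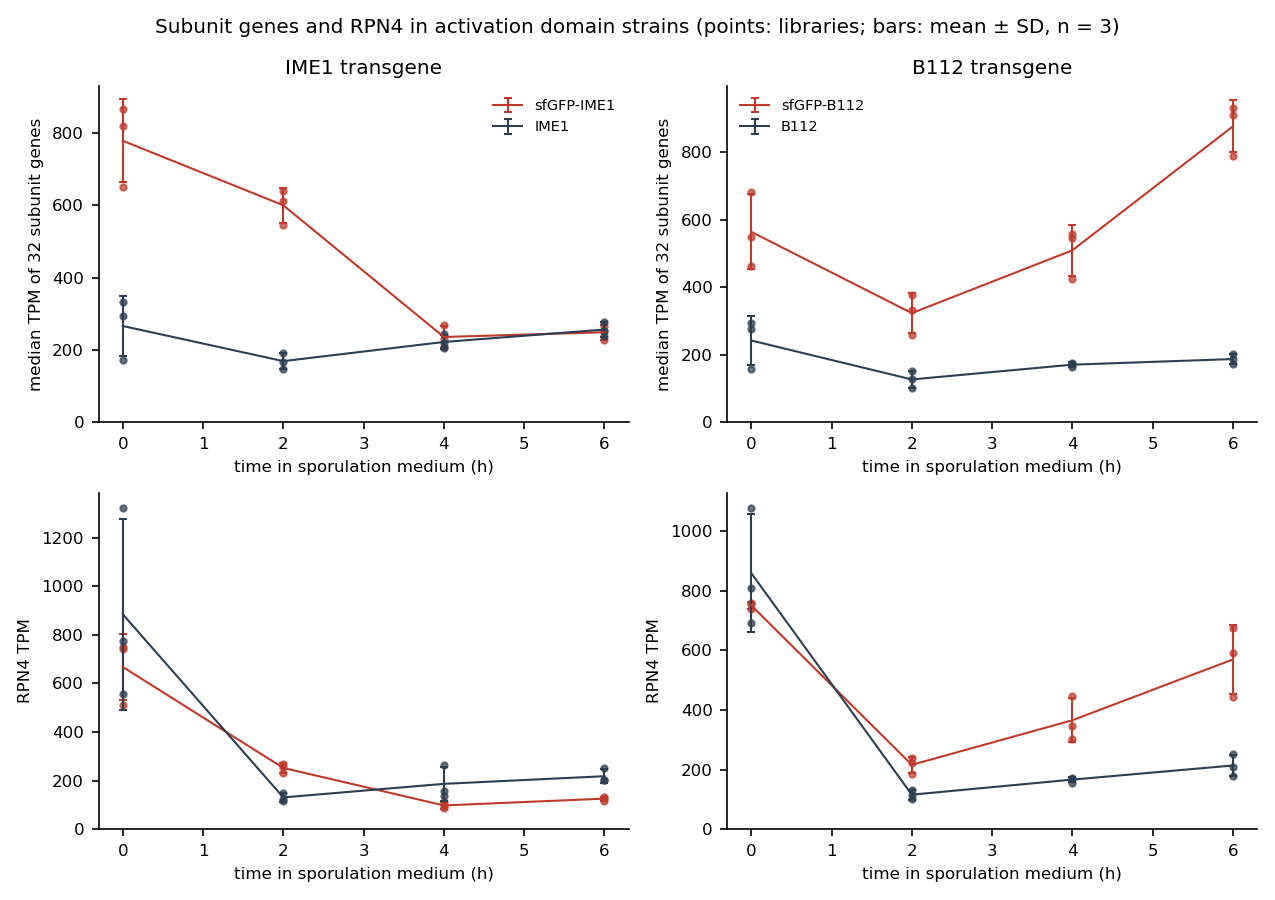
Median level of the 32 subunit genes (top) and level of RPN4 (bottom) in the 4 activation domain strains over time in sporulation medium (x axis, h). The y axis gives TPM, points are libraries, and lines and bars are means ± SD (n = 3). The subunit median with sfGFP-IME1 drops below 271 TPM from 4 h on, while with sfGFP-B112 it reaches 788 to 929 TPM at 6 h, and RPN4 starts above 500 TPM in all 4 strains.

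The tethered strains differed from each other in all members at 6 h. At 4 h 10 of 33 members were lower with sfGFP-IME1 than with sfGFP-B112, a smaller share than the 36.1% of all genes lower. At 6 h all 33 were lower, against 27.3%. The median change of the members at 6 h was −1.13. RPN3 (−1.54), RPT6 (−1.40) and RPN4 (−1.40, adjusted p = 9.8e-06) fell most and PRE8 (−0.73), PUP3 (−0.73) and PRE7 (−0.79) least. At 4 h RPN4 (−1.23, adjusted p = 4.5e-05), RPT4 (−0.75) and PRE10 (−0.75) were lowest among those called, and RPN10 (−0.50), PRE2 (−0.50) and RPN7 (−0.58) were the smallest calls. That count was 6 with RLE size factors, 31 with total counts only, and 2 without the replicate 2 or the replicate 3 libraries. The fit puts all genes at a median of −0.25 at 4 h, and in TPM the members' median ratio was −1.15, against −0.89 for all genes tested. At 6 h the TPM ratios were −1.91 for the members and −0.76 for all genes tested. RPN4 measured 133, 126 and 117 TPM with sfGFP-IME1 at 6 h, against the 444 to 676 TPM with sfGFP-B112 given above.

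The effect of the sfGFP tag itself was compared between IME1 and B112 at 6 h. It was smaller with IME1 for all 33 members, by a median of 1.47 on the log2 scale, in a test that called 19.9% of all genes lower. PRE9 differed by −1.93, RPN3 by −1.90 and RPT6 by −1.82, RPN4 by −1.37, and PUP3 (−1.11), PRE7 (−1.13) and PRE8 (−1.14) by the least. The count was 18 without the replicate 3 libraries. These comparisons share the sfGFP strains with those against the untagged strains and are not separate evidence. The middle meiotic genes summed to 3111 to 4736 TPM with sfGFP-IME1 at 6 h and 192 to 1328 TPM with sfGFP-B112, the early genes to 1290 to 1627 TPM with sfGFP-IME1 and 4560 to 5026 TPM with sfGFP-B112, and the heat shock genes to 1271 to 1570 TPM with sfGFP-IME1 and 3777 to 4361 TPM with sfGFP-B112. Their part in the proteasome values was not tested.

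Most members were lower at the end of the course of starved cells with untagged B112. There, 26 of 33 members were lower at 6 h than at 0 h, against 37.8% of all genes lower, with RPN4 (−2.61, adjusted p = 2.4e-11), RPN8 (−2.14) and RPT6 (−1.85) first and RPN7 (−0.50), PRE2 (−0.52) and RPN9 (−0.66) last among those called. RPN4 measured 252, 209.7 and 179.5 TPM at 6 h, against 1080, 691 and 809 TPM at 0 h, and RPN8 134, 126 and 108 TPM at 6 h, against 218, 408 and 418 TPM at 0 h. In TPM the fall was smaller: the median log2 ratio was −0.22 for the members and 0.52 for all genes tested. Of the 26 members called, 24 had a lower mean TPM at 6 h and 10 did not overlap, counts not made over all genes. With total counts only 13 were lower, and RPN7 and PRE2 were then above 0. The count was 17 without the replicate 2 libraries and 14 without the replicate 3 libraries.

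Set beside the median of the 32 subunits, the transcript of RPN4 was not in a fixed ratio to them. At 0 h of the activation domain experiment the ratio was 0.917, 0.854 and 0.788 with sfGFP-IME1, against 6.84, 2.36 and 2.95 with B112, where replicate 1 was far above the others. In wild-type cells it averaged 1.77 before starvation (0 h), 0.770 after 2 h, 0.639 after 4 h and 0.596 after 6 h, and in meiotic control cells 0.531 at 2.5 h and 1.6 at 2 h. Across the 74 condition means, the correlation of log2 levels of RPN4 and the subunit median was r = 0.565 (Spearman 0.600). It was 0.850 over the 14 mitotic conditions, −0.641 over the 12 meiotic ones, 0.404 over the 32 of the rescue experiment and 0.576 over the 16 activation domain conditions. Conditions of an experiment share strains and sequencing, so these are descriptions and carry no test.

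The subunits followed one another far more closely. The correlation of a subunit gene with the subunit median over the 74 conditions was highest for SCL1 (r = 0.986) and PRE1 (r = 0.985) and lowest for RPN9 (0.711), RPN13 (0.795) and RPN11 (0.910). RPN9 reached 4.30 times the subunit median in a meiotic library, and RPN13 3.81 times in an activation domain library. RPN13 measured 145, 203 and 209 TPM in wild-type cells at 6 h, against 279, 286 and 257 TPM at 0 h, and was not called (−0.12, adjusted p = 0.37), whereas 30 members were called higher. Its promoter window was the one among subunit genes without a PACE core, while those of RPN9 and RPN11 held the full PACE letters. A link between the motif and the profile was not tested.

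Outside the 33 members, the genes whose profile over the 74 conditions was most like the subunit median were RAD52 (r = 0.980), UFD1 (0.971), REH1 (0.956), SBA1 (0.929), NPL4 (0.925), BET4 (0.923), VPS1 (0.910), UMP1 (0.908), CDC48 (0.906) and RGD3 (0.903), from 5397 genes compared. Of these, Ufd1, Npl4 and Cdc48 form the complex that unfolds ubiquitylated proteins, Ump1 is a chaperone of core particle assembly, Sba1 a co-chaperone of Hsp90 and Rad52 a protein of homologous recombination. The PACE core was in the windows of 6 of the 10 (60.0%). UBP6, the proteasome-bound deubiquitinase, ranked 11 and UBR2, the ubiquitin ligase that targets Rpn4, ranked 13. In contrast, correlations were negative but weak for UBA1, the ubiquitin-activating enzyme (r = −0.31, rank 4105), UBC4 (−0.34, rank 4220) and the assembly chaperone gene POC4 (−0.35, rank 4253).

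Genes that work with the proteasome were counted from 4 lists: 5 other subunits and activators, 10 assembly chaperones, 15 genes of the ubiquitin route and 6 regulators of Rpn4. In tethered cells of the rescue experiment at 6 h, 5 of 5, 6 of 10, 12 of 15 and 4 of 6 were higher than in untethered cells and none, 1, 1 and none lower, with medians of 1.36, 0.47, 0.78 and 0.84, beside 33.0% of all genes higher and a median of −0.06. UBR2 (2.08), UFD1 (1.97), UMP1 (1.72) and UBP6 (1.69) rose most, and the base chaperone gene NAS6 (−0.80) and UBA1 (−0.63) fell. With sfGFP-B112 at 6 h, 4 of 5, 4 of 10, 11 of 15 and 4 of 6 were higher than with B112 and none lower, beside 28.5% of all genes higher, led by UBR2 (2.87), UMP1 (2.24), the small lid subunit gene SEM1 (2.12) and UFD1 (2.11). The list medians with sfGFP-B112 were 1.50, 0.34, 1.02 and 1.19. All 4 lists thus stood below the subunits in both comparisons (subunit medians 1.73 and 2.17), the assembly chaperones lowest.

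In meiotic control cells at 2.5 h against 2 h, 4 of 5, 4 of 10, 9 of 15 and 6 of 6 were higher, beside 26.5% of all genes, with the shuttle receptor gene DDI1 (1.05) and the chaperone gene IRC25 (0.94) foremost, and UFD4 (−0.45), UBC4 (−0.28) and ADC17 (−0.45) lower. At 6 h against 2 h the conjugating enzyme gene UBC5 (1.85) and UMP1 (1.67) rose most, and the base chaperone gene HSM3 fell (−2.29). After 15 min of mitotic depletion, the stress-induced polyubiquitin gene UBI4 (1.78), SEM1 (0.86), UBR2 (0.67) and MUB1 (0.38), the partner of Ubr2, were higher, with 2 of 5, none of 10, 2 of 15 and 2 of 6 in the lists, beside 10.2% of all genes higher. UBR2 (1.49) and UBI4 (1.71) were also higher in ume6Δ than in WT, with UBC5 (1.63) and ECM29 (1.45), which tethers core and regulatory particles, while RAD6 (−0.49) and MUB1 (−0.36) were lower. In the lists 2 of 5, 4 of 10, 5 of 15 and 2 of 6 were higher in ume6Δ and none, none, 2 and 1 lower. Of all genes 27.5% were higher and 27.8% lower. The windows of UBR2, UBI4, UBC5 and ECM29 held the URS1 core, as did that of BLM10. By list that made 2 of 5, none of 10, 2 of 15 and 1 of 6 windows, against 9.57% of all 6006 windows. The part of the URS1 core in these changes was not tested. MUB1 is on the study's list of genes with long undecoded transcripts, for which a change in counts need not be a change in coding transcript.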

How the data were processed

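The libraries were polyA-selected and directional, and the authors quantified them with kallisto (version not given in the sources used here) against SK1 transcripts. They deposited estimated counts and TPM for the same 5818 genes in each of 4 experiments. The estimated counts were whole for 95.4% to 96.0% of the values of a table, and were rounded. The submitters' processing notes also name HISAT2, SAMtools and StringTie. Members were matched by symbol in the mitotic table and by SK1 identifier elsewhere. The members and lists were chosen with earlier results of these data known.

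Tests used edgeR 4.0.16 (R 4.3.3): TMM scaling, filterByExpr, 1 fit per experiment with a coefficient for every condition, quasi-likelihood F test, and Benjamini-Hochberg adjustment over all genes tested (5488 mitotic, 5526 meiotic, 5527 rescue, 5528 activation domain). In 2 rescue libraries, IME1 with UME6-3V5 replicate 1 at 0 and 2 h, counts and TPM match only if exchanged, and both were left out (94 fitted). Ratios and correlations of TPM used log2(TPM + 1), with a floor of 10 on the mean TPM for likeness. No 2 replicates had identical counts in 222 pairs. Named in the text were RPN4, in each comparison the 3 members called with the largest and the 3 with the smallest change, members called against the majority (at most 5), the 10 genes most alike in profile and up to 4 list genes a comparison. Further members were named after their values were seen. The steps were tested on simulated counts. Alternatives were RLE size factors, total counts only, no filter on low counts, DESeq2 1.42.0, a replicate block, only the compared groups, and leaving out libraries. Depth is given in the report.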

Additional observations from a re-analysis of the deposited data

Results flagged for a closer look

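The effect of mitotic Ume6 depletion on RPN4 differed between 120 and 15 min by −0.638 on the log2 scale (SE 0.104, edgeR adjusted p = 0.00104), the depleted cells being above the control at 15 min and below it at 120 min. Control RPN4 rose over this time, and the part of that rise in the difference was not tested.

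The effect of the sfGFP tag at 6 h was smaller with IME1 than with B112 for the members named there. The log2 differences were −1.93 for PRE9 (SE 0.296, edgeR adjusted p = 3.47e-06), −1.9 for RPN3 (SE 0.406, adjusted p = 0.000304), −1.82 for RPT6 (SE 0.362, adjusted p = 0.000135), −1.37 for RPN4 (SE 0.341, adjusted p = 0.00144), −1.14 for PRE8 (SE 0.234, adjusted p = 0.000202), −1.13 for PRE7 (SE 0.335, adjusted p = 0.0064) and −1.11 for PUP3 (SE 0.256, adjusted p = 0.00067). The middle meiotic genes stood higher with sfGFP-IME1 at that time, as given in the report, and their part in the difference was not tested.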

How the results depend on the processing

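Of 361 counts of members recomputed under an alternative, 272 stayed within 1.5 times the reported count, 22 were higher and 67 lower. Of 2046 values of named genes and medians, 1801 were counted as unchanged. For a named gene that meant the same direction and side of the threshold. For a median it meant a shift smaller than the SD between libraries of the members' median level. The cause of the changes listed here was not tested. With total counts only, the number of members called was 16 at 15 min, 0 at 120 min, 25 in the mitotic control course, 12 at 3 h of meiotic depletion, 0 at 2 h of meiotic depletion, 3 lower in wild type at 2 h, 3 in tethered cells at 0 h, 9 with sfGFP-IME1 at 4 h, 31 for sfGFP-IME1 against sfGFP-B112 at 4 h and 13 in the untagged B112 course. It was 2 for 0 min against −30 min and 0 lower in ume6Δ. That scaling moved the median of all genes by −0.47 to 0.58 relative to TMM. With RLE size factors it was 0 at 30 min, 0 lower in ume6Δ, 2 for 0 min against −30 min, 2 at 2 h of meiotic depletion, 8 higher in wild type at 2 h and 6 for sfGFP-IME1 against sfGFP-B112 at 4 h. DESeq2 gave 2 at 30 min, 1 at 60 min, 2 at 120 min, 2 for the difference between 120 and 15 min, 3 at 2 h and 9 at 3 h of meiotic depletion, and 8 higher in wild type at 2 h. No filter on low counts gave 0 at 30 min, and a fit of only the compared groups 11 at 15 min and 0 at 30 and 120 min.

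Leaving out libraries gave 1 to 6 members at 15 min, 0 to 4 at 30 min, 0 to 3 at 60 min and 0 to 1 at 120 min. For the difference between 120 and 15 min it gave 0 to 1, for ume6Δ 1 to 11 higher and 0 to 4 lower, for 0 min against −30 min 1 to 2 higher and 0 to 1 lower, and for the mitotic control course 4 to 9. Meiotic depletion gave 0 to 1 at 2 and 2.5 h, 0 to 4 at 3 h and 0 at 4.5 and 6 h. Wild type at 2 h gave 0 to 6 higher and 3 to 6 lower, tethered cells at 0 h 2 to 11 and T99N 2 to 17. The activation domain strains gave 6 to 21 (sfGFP-IME1, 4 h), 5 to 25 (sfGFP-IME1, 6 h), 9 to 29 (sfGFP-B112, 0 h), 15 to 32 (sfGFP-B112, 2 h), 2 to 8 (sfGFP-IME1 against sfGFP-B112, 4 h), 14 to 32 (untagged B112) and 18 to 33 (difference of the tag effect). Signs that reversed were those of RPN4 at 0 min of mitotic depletion (−0.0204 without replicate 1, and up to 0.154 without other libraries), at 4.5 h of meiotic depletion (0.0813 without replicate 3, down to −0.0651), at 6 h (−0.0031 with total counts only and −0.0082 without replicate 3, up to 0.153) and with sfGFP-IME1 at 0 h (0.0266 without replicate 3, down to −0.814), and those of RPN7 (0.11) and PRE2 (0.0859) in the untagged B112 course with total counts only.

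Whether equal replicate numbers mark libraries of 1 culture is not stated in the sources used here, although cultures were sampled over time. In 1 of 34 comparisons, sfGFP-B112 against B112 at 0 h, every same-numbered pair had deviations correlated above 0.1 (0.457, 0.358 and 0.345), and there a replicate block also gave 23 members higher. Mean r ran between −0.29 and 0.386. The replicate block gave 2 members at 2 h and 9 lower at 3 h of meiotic depletion and changed no other count by over 1.5 times. Of single genes, RPN4 in the meiotic control at 6 h against 2 h was called with the replicate block (adjusted p = 0.0401) and with a block for strain and replicate number together (adjusted p = 0.0285), and PRE5 between −30 and 0 min was not called with that second block (adjusted p = 0.0554). The library of 44189 counts has little precision, and leaving it out, an alternative chosen after seeing the data, changed no call. Each comparison of groups rests on 3 libraries a group.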
